A study of Mus musculus with 15 samples.

Results

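The Kruppel-like factors examined here are 10 genes of the thoracic aorta of mice, namely Klf2, Klf3, Klf4, Klf5, Klf6, Klf9, Klf10, Klf11, Klf13 and Klf15. They were picked by gene symbol out of a table of 37681 genes, and that choice was made with earlier results of the same libraries known, so their differences between groups are given as descriptions and not as support for an effect. Each symbol matched a single row, and all 10 passed the filter on low counts. In the deposited mm9 coordinates Klf9 spans chr19:23215514-23241603, Klf13 chr7:71031035-71084003, Klf15 chr6:90412368-90425434, Klf11 chr12:25336034-25347841 and Klf2 chr8:74842730-74845757. The animals were adult male wild-type C57BL/6 mice aged 10 to 12 weeks, kept under 12 h of light and 12 h of darkness. Groups of 5 mice were given 100 uL by gavage of celecoxib at 30 mg/kg, of rofecoxib at 10 mg/kg, or of the carrier PEG-400 alone, which is called vehicle below. Aortas were taken 6 h later at ZT11, that is 11 h after lights on, and 1 library of polyadenylated RNA was sequenced per mouse. Celecoxib and rofecoxib both inhibit cyclooxygenase-2, the inducible enzyme of prostaglandin synthesis, and the design sets each of them against vehicle. Their doses differ, so their values stand side by side and no test was made between them.

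Kruppel-like factors (KLFs) are transcription factors that bind GC-rich and CACCC sequences through a set of zinc fingers at the carboxyl end. Klf2 and Klf4 are known in blood vessels as factors that laminar flow induces in endothelium through the MEK5-ERK5-MEF2 kinase pathway, and Klf4 also opposes contractile gene expression in smooth muscle. Klf9, Klf13 and Klf15 are known to respond to glucocorticoids in several tissues, Klf15 also follows the circadian clock and controls amino acid use, and Klf10 and Klf11 are early genes of transforming growth factor beta (TGF-beta) signalling. Klf6 responds to injury, Klf5 marks proliferating smooth muscle, and Klf3 is a repressor that recruits the corepressor CtBP.

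RefSeq promoter sequences of build GRCm38.p6 were at hand for 8 of the 10 genes, without Klf5 and Klf10. The 250 bases before the annotated start are shown for the 5 genes on which the results below turn most: Klf9, Klf13 and Klf15, which varied together across libraries, Klf11, which had the largest fitted celecoxib difference of the 10, and Klf2, which ran opposite to Klf9. Capitals mark the GC box GGGCGG, the KLF-type element CACCC, the E-box CACGTG and the MEF2 box, searched on both strands, so that CCGCCC and GGGTG are the same elements read from the other strand. Each sequence runs 5′ to 3′ along the gene.
Klf9, chr19:23140976-23141225, + strand: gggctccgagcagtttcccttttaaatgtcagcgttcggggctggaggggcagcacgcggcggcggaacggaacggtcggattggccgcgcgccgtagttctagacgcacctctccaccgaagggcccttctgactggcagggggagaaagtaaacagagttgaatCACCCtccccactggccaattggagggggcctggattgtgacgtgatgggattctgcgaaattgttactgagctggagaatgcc
Klf13, chr7:63938916-63939165, - strand: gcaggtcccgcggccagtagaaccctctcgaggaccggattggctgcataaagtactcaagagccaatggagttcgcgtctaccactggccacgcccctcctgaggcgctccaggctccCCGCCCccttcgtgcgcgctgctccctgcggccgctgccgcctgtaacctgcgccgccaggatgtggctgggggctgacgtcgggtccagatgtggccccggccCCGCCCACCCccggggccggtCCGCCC
Klf15, chr6:90462326-90462575, + strand: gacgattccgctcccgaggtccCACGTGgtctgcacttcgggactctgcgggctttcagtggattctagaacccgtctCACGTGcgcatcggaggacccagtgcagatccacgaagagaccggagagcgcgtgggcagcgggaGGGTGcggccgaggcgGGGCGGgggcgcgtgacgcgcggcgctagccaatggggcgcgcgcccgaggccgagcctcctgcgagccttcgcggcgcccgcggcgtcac
Klf11, chr12:24651121-24651370, + strand: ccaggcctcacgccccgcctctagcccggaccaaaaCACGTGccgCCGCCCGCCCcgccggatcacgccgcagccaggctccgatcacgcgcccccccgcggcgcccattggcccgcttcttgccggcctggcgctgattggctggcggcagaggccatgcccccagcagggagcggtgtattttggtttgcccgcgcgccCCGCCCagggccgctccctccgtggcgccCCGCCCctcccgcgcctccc
Klf2, chr8:72318812-72319061, + strand: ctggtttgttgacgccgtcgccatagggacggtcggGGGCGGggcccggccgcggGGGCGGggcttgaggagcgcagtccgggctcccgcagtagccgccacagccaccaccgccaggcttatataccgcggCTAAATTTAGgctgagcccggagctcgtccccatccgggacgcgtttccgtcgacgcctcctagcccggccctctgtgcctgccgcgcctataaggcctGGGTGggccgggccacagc
The promoter of Klf15 held 2 copies of the E-box CACGTG, at 228 and 172 bases before the start. E-boxes are the elements that the clock activators bind, and 6.02% of the 32851 RefSeq mouse promoters of this length held CACGTG. A single copy lay in the promoters of Klf4, Klf6 and Klf11, so that 4 of 8 genes had it. The MEF2 box, present in 2.92% of promoters, was found 118 bases before the start of Klf2 and in no other of the 8. GGGCGG was present in 7 of 8 (32.7% of all promoters), and Klf9 was the gene without it. CACCC was present in 5 of 8 (52.0% of all promoters), and in the promoters of Klf3 and Klf13 a copy overlapped a GC box. A further 5 searches gave TGACG, the core of the cyclic AMP element, in 5 of 8 (17.8% of all promoters), CCAAT in 5 of 8 (33.8%), and AGAACA, which is part of the glucocorticoid response element, TATAAA and the CArG box in 0 of 8, against 16.1%, 12.4% and 1.47% of all promoters. Between 59.6% and 78.4% of the bases in the 8 promoters were G or C, against a median of 52.4% over all promoters. A match is a description of letters in this window and not evidence of binding.

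The library totals lay between 30937046 and 30967115 counts, and between 19158 and 19746 genes had a count in each library. Smooth muscle markers of the vessel wall were abundant in every library, and the summed level of 6 of them was 44232 to 47484 CPM (counts scaled to a common library size) in celecoxib aortas, 42942 to 52822 CPM in rofecoxib aortas and 36856 to 50711 CPM in vehicle aortas. Among the libraries that stood apart, celecoxib 4 lay farthest out on the first 2 principal components, which held 47.0% and 10.9% of the variance, and the library celecoxib 1 lay lowest on the second. Markers of fat attached to the vessel moved with the groups. The summed level of 8 brown adipocyte markers, none of them at 0, was 225 to 675 CPM in celecoxib aortas, 360 to 609 CPM in rofecoxib aortas and 612 to 1745 CPM in vehicle aortas. That of 8 white and general adipocyte markers was 883 to 2204 CPM in celecoxib aortas, 1314 to 3136 CPM in rofecoxib aortas and 1690 to 4179 CPM in vehicle aortas. In whole tissue, fewer cells of a type and less RNA per cell cannot be told apart.

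Among the 14 KLF genes that passed the filter, Klf6 was the most abundant in vehicle aortas per kilobase of exon, at 60.3 ± 7.28 CPM per kb (SD, n = 5, exon lengths from the GRCm38 annotation). Klf9 followed with 45.6 ± 4.52 CPM per kb, Klf13 with 29.8 ± 3.75 CPM per kb and Klf15 with 28.4 ± 8.88 CPM per kb. The flow-responsive genes Klf2 and Klf4 came next, at 19.0 ± 4.81 and 13.8 ± 2.17 CPM per kb. The vehicle ranges of Klf13 and Klf15, of Klf15 and Klf2, and of Klf2 and Klf4 overlapped, whereas those of Klf6 and Klf9, and of Klf9 and Klf13, did not. Further down stood Klf10 at 5.90 ± 2.15 and Klf11 at 4.91 ± 0.721 CPM per kb, whose ranges overlapped, and Klf3 at 3.30 ± 0.263 CPM per kb. Klf5 was the lowest of the 14 at 0.194 ± 0.0369 CPM per kb and rested on 22 to 52 counts per library. The 4 KLF genes outside the 10 that passed the filter, Klf16, Klf7, Klf12 and Klf8, had between 1.19 ± 0.167 CPM per kb (Klf8) and 4.28 ± 0.678 CPM per kb (Klf16) in vehicle aortas. Klf1, the erythroid factor, had at most 6 counts in any library, Klf14 at most 1 and Klf17 0. The plot of levels per kilobase shows this order in the 3 groups.

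**Figure D1:**
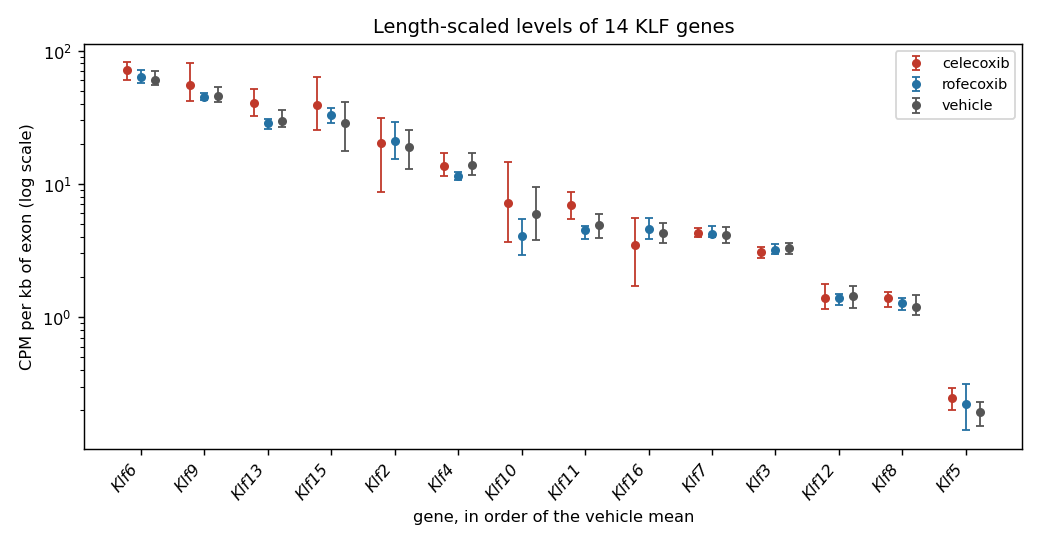
Level of 14 KLF genes in CPM per kb of exon, on a log axis, with genes in the order of their vehicle mean. Points are means of 5 libraries, bars run from the lowest to the highest library, and in each trio celecoxib is left, rofecoxib in the middle and vehicle right. Klf6 stands highest in all 3 groups and Klf5 lowest.

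Celecoxib aortas had higher mean levels than vehicle aortas for 8 of the 10 genes, with fitted differences of 0.49 for Klf11, 0.46 for Klf15 and 0.45 for Klf13 on the log2 scale, that is folds of 1.40, 1.38 and 1.37. Over all genes tested, 51.4% had a positive fitted difference. None of the 10 passed an adjusted p of 0.05 in the edgeR quasi-likelihood test, where their adjusted p-values ran from 0.269 to 0.936. The same held for the whole table: 0% of 15134 genes were called, and the smallest adjusted p of any gene was 0.146. At an unadjusted p under 0.05 stood 3 of the 10, namely Klf6, Klf11 and Klf13, all of them higher in celecoxib aortas, where 12.5% of all genes did (810 higher and 1086 lower). In no case were the 5 celecoxib libraries clear of the 5 vehicle libraries, which was so for 1.30% of all genes. The median fitted log2 difference over the 10 was 0.27, against 0.01 over all genes tested. Without celecoxib 1 the fitted differences of Klf11, Klf13, Klf15, Klf9 and Klf10 were 0.41, 0.37, 0.23, 0.10 and -0.14. Without celecoxib 4 those of Klf11, Klf13 and Klf15 were 0.57, 0.49 and 0.52. DESeq2's Wald test on the same counts called 120 genes, and Klf13 was the 1 gene of the 10 among them, with an adjusted p of 0.034, while limma-voom called 0.

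Rofecoxib aortas had higher means than vehicle aortas for 4 of the 10 genes and lower means for 6, with a median fitted log2 difference of -0.04. Over all genes tested, 49.7% had a positive fitted difference. The adjusted p-values of the 10 ran from 0.913 to 0.999995, again 0% of all genes were called, the smallest adjusted p of any gene was 0.896, and DESeq2 and limma-voom likewise called 0. Klf4 alone of the 10 was at an unadjusted p under 0.05, and it was lower in rofecoxib aortas, where 5.18% of all genes were past that limit (222 higher and 562 lower). Rofecoxib and vehicle libraries overlapped for all 10 genes, and were clear of each other for 1.16% of all genes. Both comparisons use the same 5 vehicle libraries, so their values are not independent of each other. The plot of fitted differences gives both sets with their intervals.

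**Figure D2:**
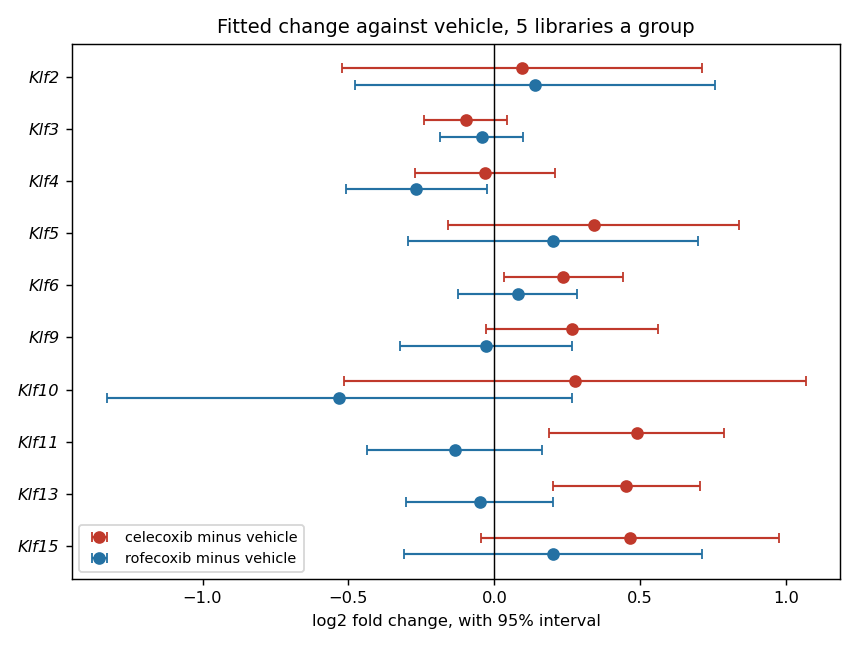
Fitted log2 difference of each gene from vehicle, with its 95% interval, for celecoxib (upper point of each pair) and rofecoxib (lower point). The celecoxib intervals of Klf6, Klf11 and Klf13 and the rofecoxib interval of Klf4 lie clear of 0, and none of these passed the adjusted threshold.

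Klf13, Klf15 and Klf9, the glucocorticoid-responsive trio, were led by the same library. Klf13 stood at 384, 267, 351, 289 and 243 CPM in celecoxib aortas, at 210.2, 232, 194, 216 and 231 CPM in rofecoxib aortas, and at 203, 214, 200.4, 233 and 269 CPM in vehicle aortas. Its 5 celecoxib values all exceeded the vehicle median, and 3 of them exceeded 269 CPM, the highest vehicle value, so the groups overlapped only through the upper vehicle and lower celecoxib libraries. The means were 307 ± 59.3 CPM under celecoxib, 216 ± 15.95 CPM under rofecoxib and 224 ± 28.2 CPM under vehicle (SD, n = 5 each). The fitted log2 differences were 0.45 ± 0.12 for celecoxib (SE, 95% interval 0.20 to 0.70) and -0.05 ± 0.12 for rofecoxib.

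Klf15, which controls branched-chain amino acid breakdown in muscle, stood at 178, 86.9, 114, 96.8 and 70.5 CPM in celecoxib aortas, at 86.8, 103, 79.6, 91.0 and 94.3 CPM in rofecoxib aortas, and at 69.6, 69.6, 49.6, 93.2 and 114 CPM in vehicle aortas. All 5 celecoxib and all 5 rofecoxib values exceeded the vehicle median, yet vehicle itself spanned the whole rofecoxib range. The fit gave 0.46 ± 0.24 for celecoxib (95% interval -0.05 to 0.97) and 0.20 ± 0.24 for rofecoxib (-0.31 to 0.71). Without the library celecoxib 1 the celecoxib difference of Klf15 was 0.23, and without vehicle 5 it was 0.63. The rofecoxib difference was 0.085 without vehicle 3 and 0.37 without vehicle 5.

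Klf9, a repressor that glucocorticoids and thyroid hormone induce in brain and other tissues, stood at 387, 236, 270.4, 225 and 203 CPM in celecoxib aortas, at 208, 227, 205, 229 and 207 CPM in rofecoxib aortas, and at 196, 214, 211, 221 and 255 CPM in vehicle aortas. Apart from celecoxib 1 and celecoxib 3, every library lay between 196 and 255 CPM. The fitted differences were 0.27 ± 0.14 for celecoxib and -0.03 ± 0.14 for rofecoxib, and the celecoxib value was 0.10 without celecoxib 1. In the Klf9 locus the annotation also holds Mir1192, over 525 bases, which had 0 counts in every library.

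Klf11 and Klf10, early genes of TGF-beta signalling, shared a different pattern. Klf11 stood at 36.9, 37.6, 24.9, 23.5 and 26.4 CPM in celecoxib aortas, at 19.4, 16.7, 21.1, 20.7 and 19.1 CPM in rofecoxib aortas, and at 21.95, 21.8, 25.6, 20.1 and 17.0 CPM in vehicle aortas. Celecoxib 1 and celecoxib 2 were the highest of the 15 libraries, and the other 3 celecoxib libraries lay among or near the upper vehicle values. On the log2 scale the fitted differences were 0.49 ± 0.14 for celecoxib (95% interval 0.19 to 0.79) and -0.14 ± 0.14 for rofecoxib (-0.44 to 0.16).

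Klf10 stood at 60.6, 39.2, 15.4, 17.7 and 16.5 CPM in celecoxib aortas, at 18.3, 12.2, 22.9, 16.2 and 15.8 CPM in rofecoxib aortas, and at 19.9, 15.8, 39.5, 23.2 and 24.9 CPM in vehicle aortas. The celecoxib group was split, with 2 libraries among the 3 highest and 3 among the 7 lowest of the 15, and its mean was 29.9 ± 19.8 CPM. Rofecoxib values were below the vehicle median in all 5 libraries, with a fitted difference of -0.53 ± 0.37, and that for celecoxib was 0.28 ± 0.37. Leaving out celecoxib 1 turned the celecoxib difference to -0.14, and leaving out vehicle 3 moved the rofecoxib difference to -0.28. Of the 14 TGF-beta pathway genes listed beside them, all tested, 5 were higher and 9 lower in celecoxib aortas. At an unadjusted p under 0.05 were Ski, a SMAD corepressor, at 456 ± 17.9 CPM under celecoxib and 418 ± 24.6 CPM under vehicle, and the ligand Tgfb2 at 76.7 ± 13.7 CPM under celecoxib and 93.4 ± 12.5 CPM under vehicle. In rofecoxib aortas 9 were higher and 5 lower, and Smad6, an inhibitory SMAD, was past that limit at 40.1 ± 3.92 CPM under rofecoxib and 59.4 ± 10.3 CPM under vehicle.

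**Figure D3:**
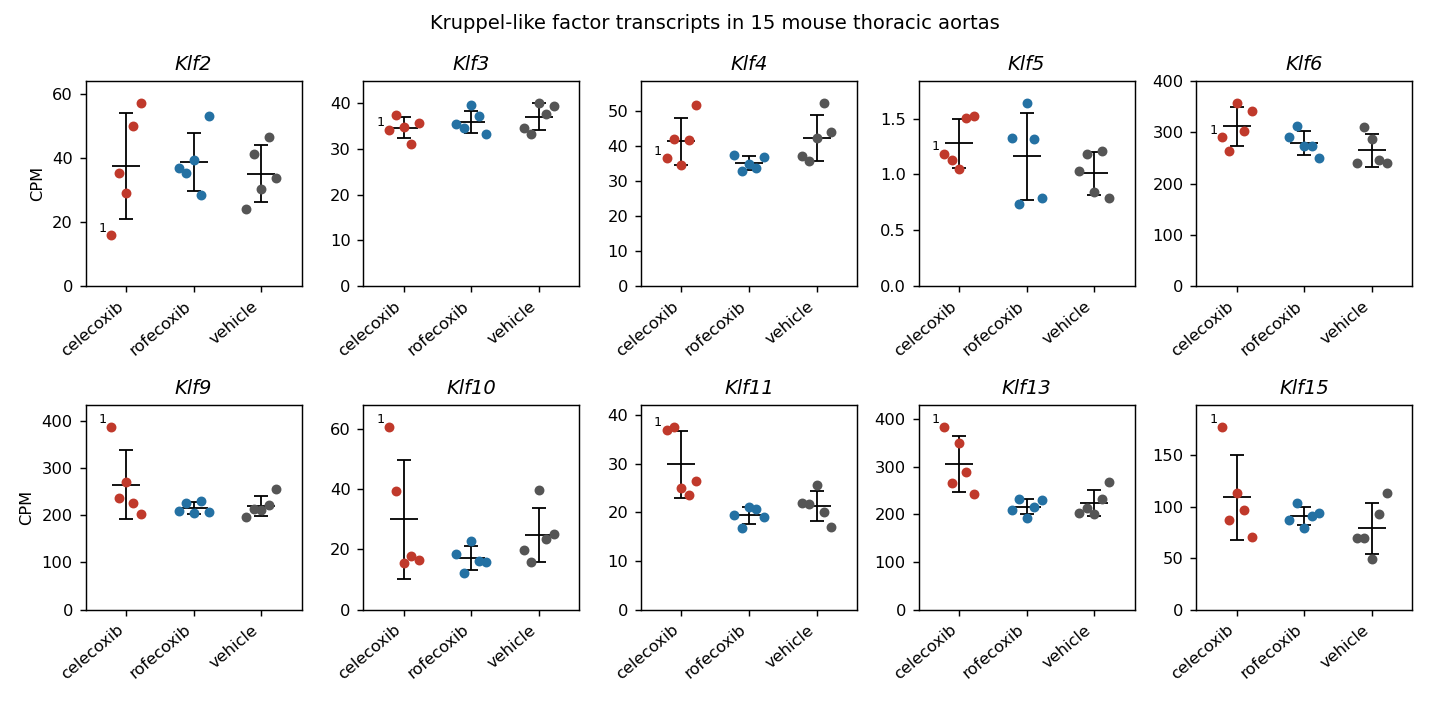
CPM of the 10 genes in each of 15 aortas, with celecoxib, rofecoxib and vehicle from left to right. Points are libraries, horizontal lines are means and bars are 1 SD; the digit 1 marks the library celecoxib 1, which is highest of all 15 for Klf9, Klf10, Klf13 and Klf15 and lowest for Klf2.

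Klf6, the most abundant gene of the family, stood at 291, 265, 358, 303 and 343 CPM in celecoxib aortas, at 291, 312, 274, 273 and 249.6 CPM in rofecoxib aortas, and at 240.1, 309.8, 287, 246 and 240.3 CPM in vehicle aortas. All 5 celecoxib and all 5 rofecoxib values exceeded the vehicle median of 246 CPM, and 2 celecoxib libraries exceeded the highest vehicle one. The fit gave log2 differences of 0.24 ± 0.10 for celecoxib (95% interval 0.03 to 0.44) and 0.08 ± 0.10 for rofecoxib. Celecoxib 1, the highest of all libraries for the glucocorticoid-responsive trio, was the second lowest celecoxib library for Klf6.

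Klf2, the flow-induced endothelial factor, varied as much within groups as between them. It stood at 15.9, 35.3, 29.2, 50.02 and 57.3 CPM in celecoxib aortas, at 37.0, 35.4, 39.3, 28.5 and 53.4 CPM in rofecoxib aortas, and at 24.0, 41.2, 30.3, 46.5 and 33.7 CPM in vehicle aortas. Celecoxib libraries held both the lowest and the highest value of the 15. Its fitted log2 differences were 0.10 ± 0.29 for celecoxib (95% interval -0.52 to 0.71) and 0.14 ± 0.29 for rofecoxib (-0.48 to 0.76), and the sign of the celecoxib difference changed with 3 of the 15 libraries when each was left out. The rofecoxib difference was 0.0027 without rofecoxib 5 and 0.27 without vehicle 4.

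Klf4 stood at 36.4, 42.0, 34.6, 41.6 and 51.7 CPM in celecoxib aortas, at 37.3, 32.7, 34.7, 33.7 and 36.8 CPM in rofecoxib aortas, and at 37.0, 35.5, 42.1, 52.2 and 44.0 CPM in vehicle aortas. The rofecoxib values were narrow, with an SD of 1.98 CPM around 35.0 CPM, and all 5 lay below the vehicle median. The fitted differences were -0.03 ± 0.11 for celecoxib and -0.27 ± 0.11 for rofecoxib (95% interval -0.51 to -0.03), a rofecoxib fold of 0.831, and the rofecoxib difference was -0.17 without vehicle 4. With the mean of the adipocyte markers as a covariate Klf4 was no longer at an unadjusted p under 0.05 under rofecoxib. Those markers also moved with the groups, so fat content and treatment cannot be told apart in that fit.

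The list of KLF2 and KLF4 target genes in endothelium is given next. Of 14 tested, 6 were higher and 8 lower in celecoxib aortas, with Thbd, which encodes the anticoagulant receptor thrombomodulin, at an unadjusted p under 0.05. Thbd averaged 82.4 ± 14.9 CPM under celecoxib, 103 ± 13.5 CPM under rofecoxib and 107 ± 12.9 CPM under vehicle. Nos3, the endothelial nitric oxide synthase, averaged 29.9 ± 9.60 CPM under celecoxib, 30.5 ± 6.98 CPM under rofecoxib and 38.2 ± 11.6 CPM under vehicle, which was within the spread of the libraries. In rofecoxib aortas 2 of the 14 were higher and 12 lower, with a median log2 difference of -0.12 against -0.00067 over all genes, and the adhesion molecule Sele, near 1 CPM or below in the group means, was past the unadjusted limit. The 10 endothelial markers summed to 684 to 901 CPM in celecoxib aortas, 595 to 875 CPM in rofecoxib aortas and 729 to 933 CPM in vehicle aortas, none of them at 0. Of these markers 2 were higher and 8 lower under celecoxib, with a median log2 difference of -0.14 and with Kdr, a VEGF receptor, at an unadjusted p under 0.05 (19.97 ± 7.51 CPM under celecoxib and 35.4 ± 4.66 CPM under vehicle). Under rofecoxib 1 was higher and 9 were lower, with a median of -0.23 and with Flt1, another VEGF receptor, past that limit (61.3 ± 8.92 CPM under rofecoxib and 73.9 ± 6.53 CPM under vehicle). The part of endothelial content in the values of Klf2, Klf4 and this list was not tested. Of 11 tested genes of the MEK5-ERK5-MEF2 and CCM pathways upstream of Klf2 and Klf4, 6 were higher and 5 lower in celecoxib aortas and 5 higher and 6 lower in rofecoxib aortas, and 0 passed the unadjusted limit in either comparison.

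Among 12 contractile and smooth muscle genes that KLF4 opposes, 10 were higher and 2 lower in each of the 2 comparisons, with median log2 differences of 0.11 for celecoxib and 0.10 for rofecoxib. Tagln, the actin-binding protein transgelin, was at an unadjusted p under 0.05 under celecoxib, at 9261 ± 536 CPM against 8310.4 ± 789.7 CPM under vehicle. Myocd, the coactivator of the contractile programme, was past that limit under rofecoxib, at 70.3 ± 9.24 CPM against 53.5 ± 8.21 CPM under vehicle. It averaged 54.6 ± 13.1 CPM under celecoxib. After group means were subtracted, Klf4 had a Pearson r of -0.42 with the mean of these 12 genes over the 15 libraries (-0.49 without celecoxib 1). With the 6 of them that served as smooth muscle markers the r of Klf4 was -0.71 (-0.72 without celecoxib 1). Klf10 had a stronger r than Klf4 with the 12 genes, at -0.55 (-0.61 without celecoxib 1). Klf4 also ran with the endothelial markers (0.57) and with the macrophage markers (0.60). The part of tissue composition in these values was not tested.

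Klf3 was the steadiest of the 10 and lay between 31.1 and 40.1 CPM in all 15 libraries, with fitted differences of -0.10 ± 0.07 for celecoxib and -0.04 ± 0.07 for rofecoxib. Klf5 averaged 1.28 ± 0.221 CPM under celecoxib, 1.16 ± 0.387 CPM under rofecoxib and 1.01 ± 0.192 CPM under vehicle, and at 22 to 52 counts its 95% intervals, -0.16 to 0.84 for celecoxib and -0.30 to 0.70 for rofecoxib, both include 0.

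Of the KLF genes outside the 10, Klf8 was at 7.18 ± 0.909 CPM under celecoxib, 6.61 ± 0.501 CPM under rofecoxib and 6.18 ± 0.872 CPM under vehicle, while Klf7 and Klf12 differed from vehicle by at most 0.05 on the log2 scale in either comparison. Klf16 had both its lowest and its highest library in the celecoxib group and averaged 9.33 ± 3.79 CPM under celecoxib, 12.2 ± 1.69 CPM under rofecoxib and 11.4 ± 1.81 CPM under vehicle. The related SP factors share the zinc fingers and GC-box binding of the KLFs. Sp2 was the SP gene whose celecoxib and vehicle libraries did not overlap, at 31.4 ± 2.53 CPM under celecoxib and 27.4 ± 1.86 CPM under vehicle, a fitted log2 difference of 0.20 ± 0.07 that did not pass the adjusted threshold. Sp4 differed by 0.35 ± 0.15 and was likewise past the unadjusted limit under celecoxib. Of 12 KLF corepressors and coactivators, 8 were higher and 4 lower in each comparison, and the acetyltransferase Ep300 was the single member past the unadjusted limit, under celecoxib.

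The within-group SD of log2 CPM ranged from 0.10 for Klf3 to 0.61 for Klf10, against a median of 0.18 over all genes tested. Klf2 at 0.51 and Klf15 at 0.40 were also well above that median. From the lowest to the highest library Klf10 spanned 4.98-fold, Klf2 3.60-fold and Klf15 3.59-fold, while Klf3 spanned 1.29-fold and the median gene 1.61-fold. Of the 15 libraries, celecoxib 1 was highest for 4 of the 10 genes and rofecoxib 2 lowest for 4.

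**Figure D4:**
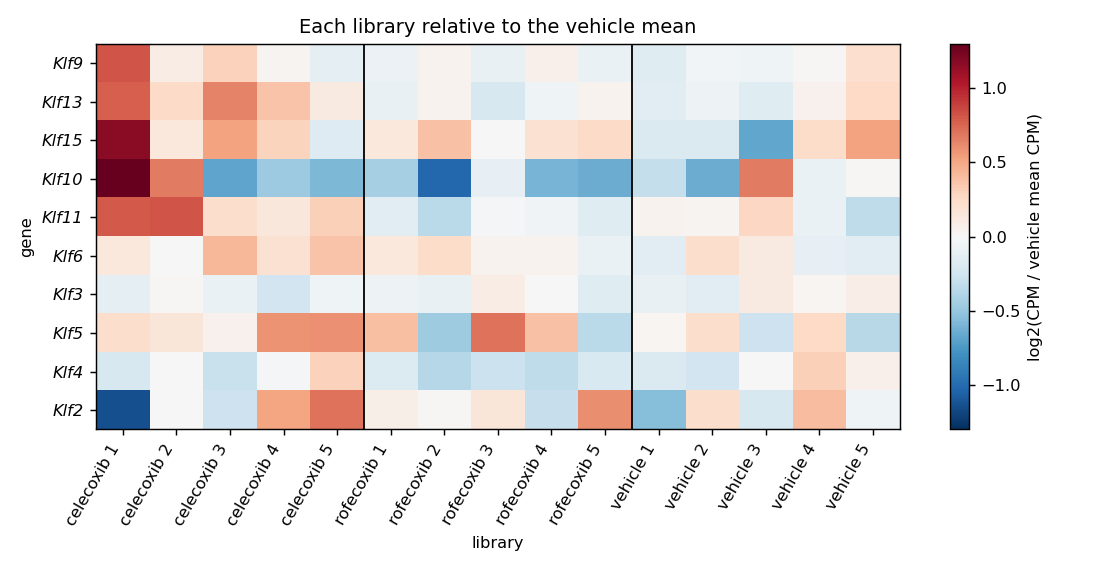
Log2 of each library's CPM over the vehicle mean, for the 10 genes (rows) in 15 libraries (columns, with celecoxib left, rofecoxib in the middle and vehicle right of the black lines). Red is above the vehicle mean and blue below; celecoxib 1 is red for Klf9, Klf13, Klf15, Klf10 and Klf11 and blue for Klf2.

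Within groups the 10 genes fell into a few patterns. With group means subtracted, Klf13 and Klf15 had a Pearson r of 0.92 over the 15 libraries, Klf9 and Klf13 of 0.86, and Klf9 and Klf15 of 0.84. Without celecoxib 1 these were 0.89, 0.87 and 0.75, so the trio varied together in the other libraries too. Klf10 and Klf11 had an r of 0.78 (0.72 without celecoxib 1), and Klf2 and Klf4 of 0.64 (0.65). The opposition of Klf2 and Klf9, with an r of -0.74, was weaker at -0.39 without celecoxib 1, and that of Klf2 and Klf10 was -0.55 with all libraries and -0.16 without it. Of the 45 pairs 20 were positive, 6 were above 0.5 and 2 below -0.5, and all values share the same 15 libraries and their scaling.

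**Figure D5:**
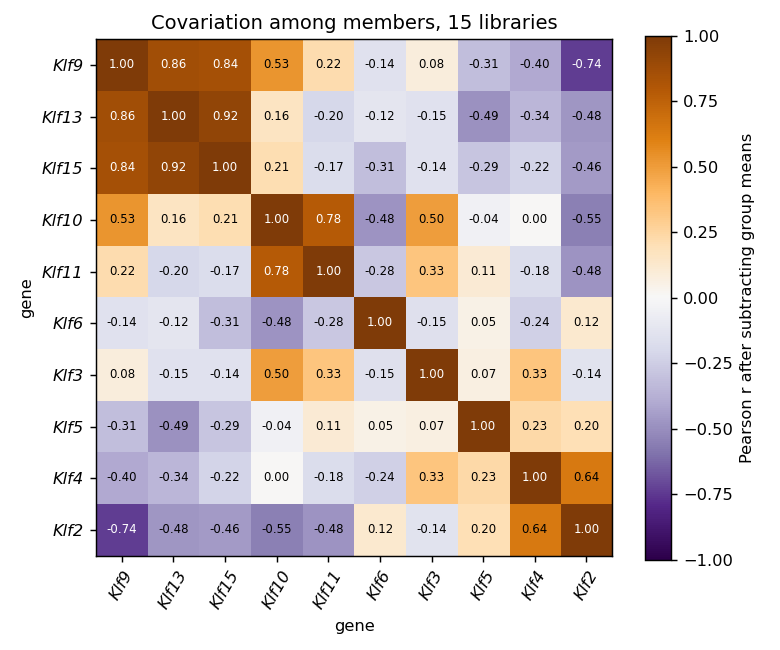
Pearson r between log2 CPM of each pair of the 10 genes after subtracting group means, over 15 libraries. Brown is positive and purple negative; the block of Klf9, Klf13 and Klf15 at the upper left holds values from 0.84 to 0.92.

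The 19 genes listed as the glucocorticoid receptor and its responsive genes ran beside the trio. Their mean log2 CPM, with group means subtracted, had an r of 0.85 with Klf9, 0.85 with Klf13 and 0.80 with Klf15, and of 0.61, 0.77 and 0.65 without celecoxib 1. Fkbp5, a chaperone partner of the receptor, stood at 972, 126, 279.6, 197 and 101 CPM in celecoxib aortas, at 63.3, 79.2, 51.8, 67.2 and 56.1 CPM in rofecoxib aortas, and at 43.6, 46.0, 57.7, 189.9 and 223 CPM in vehicle aortas. Celecoxib 1 was again the highest, and vehicle 4 and vehicle 5, the vehicle libraries with the most Fkbp5, were also the highest of that group for Klf13 and Klf15. They were likewise its highest for white and general adipocyte markers (4179 and 3899 CPM) and brown ones (932 and 1745 CPM). Within groups the brown adipocyte markers had an r of 0.39 with Klf9, 0.48 with Klf13 and 0.46 with Klf15. The part of fat in these values was not tested. In celecoxib aortas 17 of the 19 were higher and 2 lower, with a median log2 difference of 0.69. Of the 19, 9 were at an unadjusted p under 0.05 and 0 past the adjusted one. Over all genes, 51.4% were higher and 12.5% were past the unadjusted limit. In rofecoxib aortas 7 of the 19 were higher and 12 lower, with a median of -0.03. Sesn1 was the gene past the unadjusted limit there, as were 5.18% of all genes. The list was chosen with earlier results of these data known, so its counts are a description. The receptor gene Nr3c1 itself was at 141 ± 22.5 CPM under celecoxib, 162 ± 9.68 CPM under rofecoxib and 155 ± 16.8 CPM under vehicle.

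The genes most like Klf13 over the 15 libraries, among 10856 with a mean of at least 5 CPM, were Eef2k (r of 0.96), Hif3a (0.95) and 4931408A02Rik (0.94). For these companion genes, and those of the other members, group means were not subtracted, so r also holds differences between groups. With group means subtracted the Klf13 values were 0.92, 0.87 and 0.91. Hif3a, and Per1 named below, also belong to the 19 genes listed as glucocorticoid-responsive. Hif3a, a hypoxia-inducible factor subunit, stood at 39.5, 15.2, 23.0, 14.7 and 11.7 CPM in celecoxib aortas, at 6.74, 10.0, 6.21, 8.16 and 6.92 CPM in rofecoxib aortas, and at 5.69, 6.52, 6.81, 13.5 and 10.5 CPM in vehicle aortas. Those most like Klf15 were 2010300C02Rik (0.93), Mtap7d2 (0.92) and the clock gene Per1 (0.91). Per1 averaged 273 ± 90.3 CPM under celecoxib, 206 ± 20.4 CPM under rofecoxib and 169 ± 40.5 CPM under vehicle. For Klf9 they were 1110038D17Rik, the lipid droplet gene Plin4 and Eif2b2, each with an r of 0.96, which without celecoxib 1 were 0.88, 0.85 and 0.83.

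Other members had other companions, each again picked as the highest of 10856 genes, so a high r follows in part from the picking. Klf2 was most like Prmt2 (0.91), Arhgap39 (0.90) and Palld (0.89), and Klf4 most like the activin antagonist Fst (0.89), Rai14 (0.86) and Igfbp4 (0.85). Klf11 was most like Art4 (0.92), Eif2ak2 (0.87) and Nalcn (0.87), which with group means subtracted were 0.85, 0.83 and 0.72. Klf10 was most like Atoh8, 6430527G18Rik and Midn (each 0.87, and 0.77, 0.78 and 0.76 without celecoxib 1). Klf6 was most like Uggt2 (0.86), Zfp281 (0.85) and C130022K22Rik (0.84). With all 15 libraries Klf5 had the weakest companions, Eif2ak3 (0.76), A830010M20Rik (0.75) and Cenpc1 (0.72), which without celecoxib 1 were 0.79, 0.79 and 0.73. Klf3 was most like the globin genes Hbb-b2 (0.80) and Hba-a2 (0.78) and the exportin Xpo7 (0.77). With group means subtracted, its r with the 7 blood and platelet markers was 0.66, and their summed level was 38.0 to 205 CPM in celecoxib aortas, 23.5 to 121 CPM in rofecoxib aortas and 38.0 to 272 CPM in vehicle aortas. The part of blood in the Klf3 values was not tested.

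Of 14 circadian clock genes, 9 were higher and 5 lower in celecoxib aortas, 3 and 1 of them at an unadjusted p under 0.05, and 8 were higher and 6 lower in rofecoxib aortas, 1 and 1 past that limit. Per1 was counted among the glucocorticoid-responsive genes and not in this list. Arntl, the clock activator partner of Clock, was low at this time of day, at 2.36 ± 1.09 CPM under celecoxib, 1.72 ± 0.246 CPM under rofecoxib and 4.55 ± 3.67 CPM under vehicle, with 10.7 CPM in vehicle 3, the vehicle library that was also highest for Klf10 and Klf11 and lowest for Klf15. The mean of the list ran against Klf2 (r of -0.84, and -0.72 without celecoxib 1) and with Klf11 (0.66 and 0.54) and Klf10 (0.65 and 0.42) within groups. That mean joins genes that moved in opposite directions, so it is not a measure of clock phase. Klf2 also ran with the 9 Schwann cell and sympathetic nerve markers (0.67), whose summed level was 55.6 to 815 CPM in celecoxib aortas, 58.0 to 576 CPM in rofecoxib aortas and 81.9 to 389.5 CPM in vehicle aortas, none of them at 0. The part of nerve tissue in Klf2 was not tested.

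Of 12 amino acid and substrate genes that KLF15 is known to control in muscle or liver, 2 were higher and 10 lower in celecoxib aortas and 0 higher and 12 lower in rofecoxib aortas, with median log2 differences of -0.27 and -0.37. At an unadjusted p under 0.05 under celecoxib were Dld, Gpt, Acss1 and Bcat2, all lower, and under rofecoxib Dld and Bckdha, both lower. Bcat2, the mitochondrial branched-chain aminotransferase, averaged 54.7 ± 5.37 CPM under celecoxib, 59.5 ± 9.83 CPM under rofecoxib and 68.0 ± 10.7 CPM under vehicle. Klf15 itself had higher means in both treated groups, while within groups it ran with the list (r of 0.73, and 0.63 without celecoxib 1). This was not particular to Klf15, as Klf13 (0.66, and 0.54 without celecoxib 1) and Klf9 (0.60 and 0.44) ran with the list too. Many of these are also genes of fat, and the adipocyte markers given above were lower in the treated groups. With the mean of the adipocyte markers as a covariate, the fitted celecoxib difference was 0.88 for Klf15, 0.44 for Klf9, 0.30 for Klf11 and 0.20 for Klf6. Because these markers differ with treatment, fat content and treatment cannot be told apart in that fit. The part of fat in the values of Klf15 and of the 12 genes was not tested. Of 8 regulators of adipocyte differentiation, 3 were higher and 5 lower in celecoxib aortas and 1 higher and 7 lower in rofecoxib aortas.

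Of 24 immediate early genes, which stress and dissection also induce, 17 were higher and 7 lower in celecoxib aortas, 5 and 3 of them at an unadjusted p under 0.05, and 8 were higher and 16 lower in rofecoxib aortas, 0 and 2 past that limit. Jun averaged 133 ± 27.5 CPM under celecoxib, 89.1 ± 7.25 CPM under rofecoxib and 100.04 ± 9.45 CPM under vehicle. Fos, with 41.0 ± 32.9 CPM under celecoxib, 27.5 ± 6.01 CPM under rofecoxib and 36.9 ± 15.5 CPM under vehicle, did not pass that limit in either comparison. Of 6 cyclooxygenase and prostacyclin genes, 3 were higher and 3 lower under celecoxib and 2 higher and 4 lower under rofecoxib. Ptgs2, which encodes cyclooxygenase-2, averaged 52.0 ± 22.7 CPM under celecoxib, 34.96 ± 9.03 CPM under rofecoxib and 25.6 ± 5.35 CPM under vehicle. It was at an unadjusted p under 0.05 under celecoxib, with a fitted log2 difference of 1.02 ± 0.26, as was Ptges, a prostaglandin E synthase, at 3.28 ± 0.737 CPM under celecoxib and 4.77 ± 1.79 CPM under vehicle. Neither passed the adjusted threshold, and 0 of the 6 passed the unadjusted limit under rofecoxib.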

How the data were processed

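Whole-number counts by gene were deposited for 15 libraries, each from its own mouse. Per the submitters' processing notes, the authors used CASAVA 1.8.2 and STAR 2.5.2a with build mm9; how reads were counted and whether by strand is not given in the sources used here. The deposited totals lie between 30937046 and 30967115, closer than raw libraries usually do, and a step that equalised them is not recorded, so the sequenced depth is unknown. Libraries were built over 3 days with no day given per library.

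Genes were filtered with filterByExpr (15134 kept, with 99.95% of counts), scaled by trimmed means of M-values, and fitted over all 15 libraries with edgeR 4.0.16 (quasi-likelihood, R 4.3.3), p-values being adjusted over all genes by Benjamini-Hochberg at 0.05. Standard errors and 95% intervals come from that fit. Correlations use log2 CPM with a prior count of 2. Alternatives included DESeq2 1.42.0, limma 3.58.1 and each library left out. The fit was also run on simulated data, the outcome of which is not given here. Within-group pairs of libraries differed by more than sampling noise.

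The 10 genes and the gene lists were chosen with earlier results of these data known. Genes named from each list are up to 4 with the smallest p, and for each KLF the 3 genes of highest r; others in the lists (Fkbp5, Nr3c1, Fos) were named after their values were seen.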

Additional observations from a re-analysis of the deposited data

How the results depend on the processing

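Genes called under celecoxib numbered 0 in the edgeR test and 120 in DESeq2's Wald test, which called 1 of the 10 KLF genes (Klf13), and 0 to 8 with each library left out (8 without celecoxib 4, 1 without celecoxib 5, 2 without vehicle 2). KLF genes at an unadjusted p under 0.05 under rofecoxib numbered 1 (Klf4), but 0 with the adipocyte marker covariate, 0 at a limit of 0.01, and 0 to 1 with each library left out. With that covariate the sign turned for Klf4 under celecoxib (0.041) and for Klf9 (0.082) and Klf13 (0.060) under rofecoxib. With each library left out, celecoxib differences ran from -0.10 to 0.30 for Klf2, -0.11 to 0.063 for Klf4 and -0.14 to 0.53 for Klf10, and rofecoxib differences from -0.067 to 0.030 for Klf9 and -0.083 to 0.024 for Klf13. Rofecoxib differences that kept their sign but moved by over 1.5 times ran from 0.0027 to 0.27 for Klf2, -0.072 to -0.00076 for Klf3, 0.051 to 0.33 for Klf5, 0.045 to 0.16 for Klf6, -0.21 to -0.050 for Klf11 and 0.085 to 0.37 for Klf15. The cause was not tested. In the same refits celecoxib differences were positive for Klf6 (0.19 to 0.31), Klf11 (0.40 to 0.58) and Klf13 (0.37 to 0.54). The same held for Klf5 (0.26 to 0.42), Klf9 (0.10 to 0.36) and Klf15 (0.23 to 0.63). Deviations of same-numbered libraries from their group means had correlations from -0.776 to 0.808. Such a correlation over many genes follows any large difference between libraries, so it cannot show whether the numbers pair samples. With replicate number as a block, 3 and 1 KLF genes were at an unadjusted p under 0.05 for celecoxib and rofecoxib. Of all genes, 1946 and 838 were past that limit, and 0 were called in either. At 22 to 52 counts, Klf5 is limited by depth.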
